A study of Drosophila melanogaster with 3 samples.

Results

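The leg and wing patterning factor genes described here are 9 protein-coding genes, chosen by name: Dll, vg, al, B-H1, B-H2, bab1, bab2, disco and disco-r. They were taken by symbol from 13945 protein-coding genes on the 6 chromosome arms, and 9 of 9 were found. E(z), the methyltransferase subunit of Polycomb repressive complex 2, was profiled in whole prepupae of Drosophila melanogaster by sequencing of immunoprecipitated chromatin (ChIP-seq). The flies were of the transgenic strain E(z)-GFP, which stably expresses E(z) with a C-terminal GFP (the description field writes E(z)-eGFP). Males and females were pooled, and the age is given as unknown. The description field gives an anti-GFP antibody, while the antibody field reads E(z). There was 1 group of 3 biological replicates from this 1 line, with no other genotype or treatment, and the labels do not say whether untagged E(z) was also present. Whole animals mix all tissues, so a peak cannot be assigned to leg, wing or any other cells.

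Each replicate had a list of 30000 ranked peaks, as had the pooled replicates. The authors' list of reproducible peaks, called the optimal list, held 5623. Peaks were ranked by the authors' signal value within each list, 1 being the highest. A gene's window was its span plus 10 kb on each side, and a summit is the position of highest signal in a peak. The lists leave the depth unknown, and no input library was analysed here. In all, 33 of the 5623 optimal summits fell in the windows of the 9 genes.

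The 9 genes encode transcription factors or cofactors that divide the fly appendages into parts. Limbs grow from imaginal discs, and in prepupae the discs evert to form legs and wings. Dll is the homeodomain selector of distal leg identity, vg encodes the partner of Scalloped in the wing selector complex, and al encodes a paired-type homeodomain protein of the leg tip and arista. The Bar homeodomain genes B-H1 and B-H2 and the BTB-domain genes bab1 and bab2 pattern the tarsus, and the zinc finger genes disco and disco-r act in antennal and leg development. Polycomb complexes keep such genes silent in cells where they are not needed, through DNA sites known as Polycomb response elements.

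Optimal summits were present in the windows of 8 of the 9 genes, and disco was the gene without one. The same rule gave a summit to 51.8% of all protein-coding genes. Within 1 kb of an annotated transcription start, 7 of the 9 genes had a summit, all but bab1 and disco, against 16.1% of all genes. A summit that lay inside one of the 5623 highest-ranked peaks of every replicate was present for 8 of 9 windows, against 38.9% of all genes. The genes were proposed with earlier results of these data known, so these counts are a description and were not tested. The median was 4 summits per window, against 1 over all genes. The members are also long, with a median span of 15.2 kb against 2.17 kb. Per length, the windows together held 8.70 summits per 100 kb, against 4.20 over the arms.

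**Figure D1:**
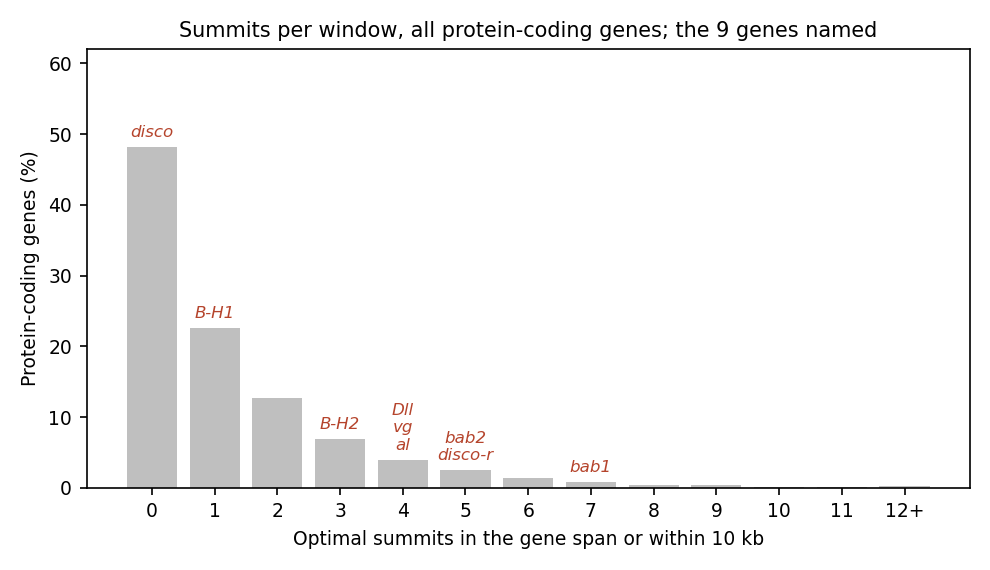
Share of all protein-coding genes (vertical axis, percent) by the number of optimal summits in the gene span or within 10 kb (horizontal axis, 12+ pools 12 and more), with each of the 9 genes written above the bar of its own number. disco is in the bar at 0, which holds 48.2% of genes, and 1.90% of genes have 7 or more, the number of bab1.

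The number of summits ran from 0 at disco and 1 at B-H1 to 7 at bab1. B-H2 had 3, Dll, vg and al had 4 each, and bab2 and disco-r had 5 each. A count of 4 or more was reached by 9.74% of all genes and a count of 5 or more by 5.75%. Per 100 kb of window, al was the densest of the 9 at 13.6, followed by vg at 11.4 and B-H2 at 10.1. The window of bab1 was the longest at 84.7 kb, and its density of 8.26 was met or passed by 23.1% of genes. The density of B-H1, 3.88, was met or passed by 46.4%.

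Of the 33 summits, 28 had a start of the member itself as the nearest start of a protein-coding gene. The other 5 were nearest to CG3650 at Dll, to Nmda1 and (2 summits) NAT1 at vg, and to CG9205 at bab1. Upstream of the gene lay 15 summits, 9 were in introns, 3 in UTRs and 6 downstream. The map of summits by gene shows 3 arrangements. At al, Dll, vg, B-H1, B-H2, bab2 and disco-r at least 1 summit sat within 1 kb of a start. At bab1 the 6 summits inside the gene all lay in the first intron, and at disco there was none.

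**Figure D2:**
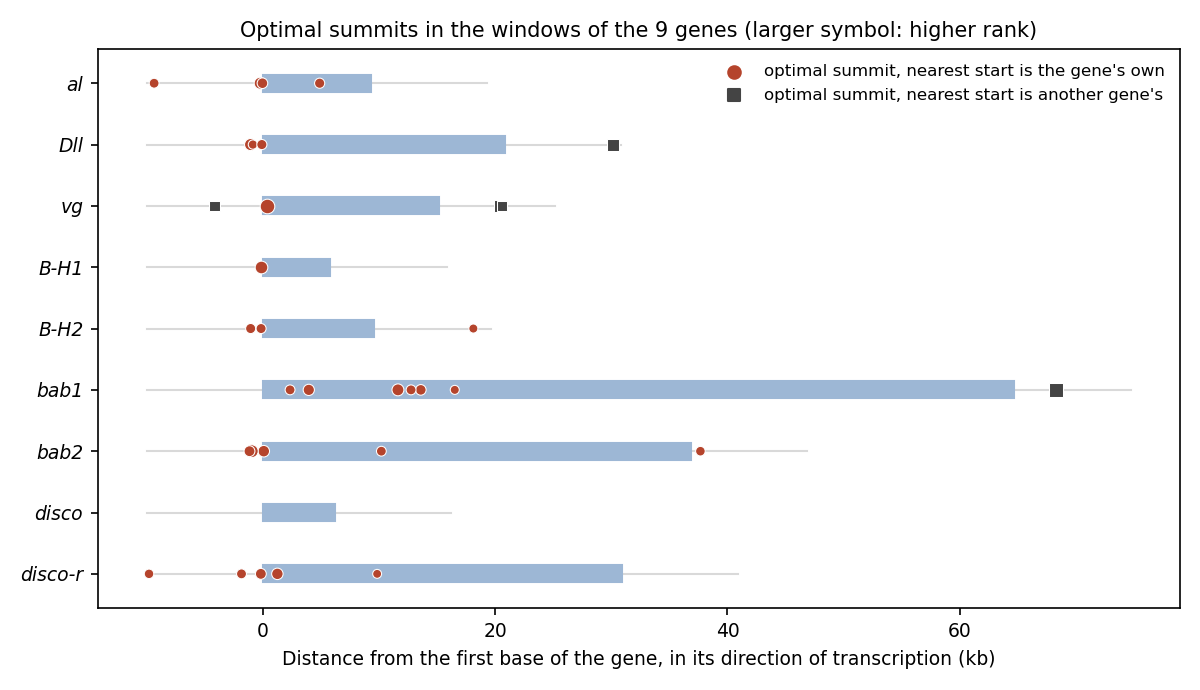
Position of each optimal summit (horizontal axis, kb from the first base of the gene in its direction of transcription) for the 9 genes. Blue bars are the gene spans, grey lines the windows of 10 kb on each side, round symbols summits nearest to the gene's own start, square symbols summits nearest to another gene's start, and larger symbols higher ranks. The 6 summits inside bab1 lie 2322 to 16510 bp into the gene, and the line of disco is empty.

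Both selector genes had a summit within 1 kb of their start, and in both the strongest replicate rank came from replicate 3. vg, at 2R 12884201 to 12899385 on the plus strand (dm6, as all coordinates here), had the highest-ranked summit of the 9 genes, at rank 280 in the optimal and the pooled list. It lay in a UTR, 314 bp into the gene and 117 bp upstream of a second annotated start. Replicates 1, 2 and 3 ranked it at 581, 477 and 98 (mean 385 ± 254, SD, n = 3), so replicate 3 stood higher than the others. A pair of summits 203 bp apart lay downstream of vg, at positions annotated as lncRNA:CR46336 and lncRNA:CR46337. The first ranked 1752 in the optimal list and 3707, 2223 and 335 in replicates 1, 2 and 3. The second, at rank 4198, was in the same peak as the first in replicates 1 and 2, while in replicate 3 its peak ranked 25691. The summit upstream of vg, at rank 2596, is nearest to Nmda1, a glutamate receptor subunit gene. It lies inside the annotated spans of Nmda1 and AspRS.

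Dll, at 2R 24814822 to 24835667 on the plus strand, had 3 summits in the 1080 bp before its start, at 1080, 880 and 108 bp upstream. The replicates placed the signal differently among these 3. The summit at 1080 bp upstream ranked 1269 in the optimal list, and the peak that held it ranked 4661 in replicate 1 and 815 in replicate 2. No peak of replicate 3 held it. The summit at 108 bp upstream ranked 3285 in the optimal list, and its peak ranked 7189 in replicate 2 and 497 in replicate 3. No peak of replicate 1 held that one. Thus each of these promoter summits lacked a peak in 1 replicate, and which replicate lacked it changed over less than 1 kb. The summit at 880 bp upstream, at rank 4760, shared a peak with the first in replicate 1 and was also missing in replicate 3. The highest-ranked summit of the Dll window, at 971, was 9304 bp beyond the end of the gene and nearest to CG3650. It ranked 1764, 1325 and 358 in replicates 1, 2 and 3 and was found in all of them.

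Ordered by their best rank in the pooled list, the genes ran vg (280), bab1 (331), bab2 (838), B-H1 (908), Dll (971), al (1379), disco-r (1744), B-H2 (3293) and disco (6215). The spread of the replicates was wide beside these steps. From vg to disco-r, each gene's range of best replicate ranks overlapped that of the next gene. The range of disco-r, 812 to 1614, did not overlap that of B-H2, 1763 to 4303. The ranges of B-H2 and disco, 4117 to 5754, overlapped again. Among all protein-coding genes, 8.06% had a best pooled rank as high as that of vg or higher, and 53.8% as high as that of disco or higher. The value for bab1 rests on the summit nearest to CG9205, and the best summit inside bab1 ranked 1356.

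**Figure D3:**
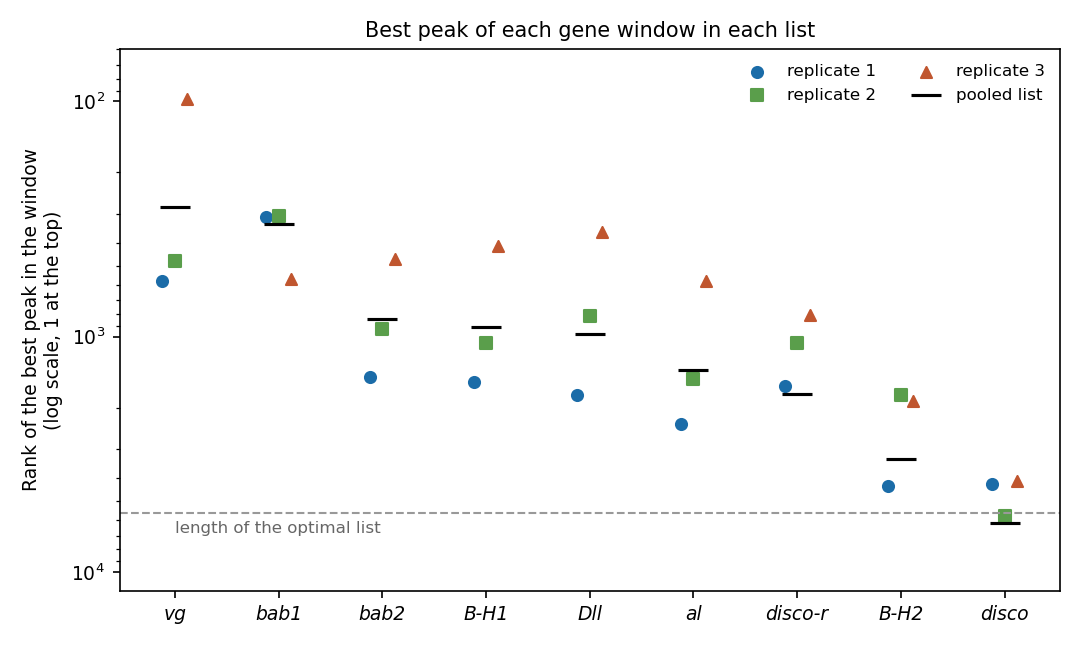
Rank of the best peak in each gene's window (vertical axis, log scale, rank 1 at the top) in replicates 1, 2 and 3 (symbols) and in the pooled list (dash), with genes in the order of the pooled rank. The dashed line is the length of the optimal list, 5623; replicate 3 gave the best rank at 7 of the 9 genes, the exceptions being bab1 and B-H2.

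al lies at 2L 378112 to 387439 on the plus strand, and its promoter summits were shared by all replicates. The summit 257 bp upstream of the start had rank 1379 in the optimal list, and ranked 2536, 1519 and 577 in replicates 1, 2 and 3 (mean 1544 ± 980, SD, n = 3). The next, 57 bp upstream, had rank 2636 and ranked 2536, 3050 and 4608, where replicate 1 placed both in 1 peak. Replicate 3 was thus highest of the 3 at the first position and lowest at the second, 200 bp away. A summit in the first intron, 4870 bp into the gene, ranked 3204, and one 9388 bp upstream ranked 3736. The sequence at the first summit is shown, as the highest-ranked optimal summit of al clear of UTRs. Matches to both words searched are in capitals here and below. These are GAGAG, the core of sites for GAGA factor, and GCCAT, the core of sites for Pho, on either strand. Windows of 100 bp each side of the summit are printed 5′ to 3′ on the gene's strand, from RefSeq's copy of genome release 6 (dm6 coordinates). Within such windows 28.2% of all 5623 optimal summits held GAGAG and 26.7% held GCCAT, and of the 33 summits described here 16 and 11 did.
al, chr2L:377755-377955, plus strand: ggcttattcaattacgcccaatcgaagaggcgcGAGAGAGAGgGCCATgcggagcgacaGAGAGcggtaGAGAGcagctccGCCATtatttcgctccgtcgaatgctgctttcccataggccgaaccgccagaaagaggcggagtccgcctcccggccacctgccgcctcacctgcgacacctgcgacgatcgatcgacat

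B-H1 and B-H2 lie on the X chromosome, both on the plus strand, with 73.3 kb and no protein-coding gene between them. B-H1, at 17397478 to 17403278, had a single summit in its window, 205 bp upstream of the start, at rank 908. It was found in all 3 replicates, at ranks 1557, 1068 and 411 (mean 1012 ± 575, SD, n = 3). B-H2, at 17314581 to 17324175, had 2 summits before its start with lower ranks. The one at 1072 bp upstream had rank 3293, with 6880, 2834 and 1874 in the replicates, and the one at 173 bp upstream had rank 3398, with 5178, 1763 and 2839. Another, 8516 bp beyond the end of the gene, had rank 5107, and 2 further optimal summits, at ranks 4317 and 4945, lay between the genes outside both windows. The sequences at the strongest summit of each gene are set side by side to compare the paralogues. Within 100 bp B-H1 held 5 GAGAG and 2 GCCAT matches, and B-H2 held 2 and 0. Within 250 bp of the same summits, B-H1 held 6 and 3, and B-H2 held 4 and 3, so GCCAT did not differ there.
B-H1, chrX:17397173-17397373, plus strand: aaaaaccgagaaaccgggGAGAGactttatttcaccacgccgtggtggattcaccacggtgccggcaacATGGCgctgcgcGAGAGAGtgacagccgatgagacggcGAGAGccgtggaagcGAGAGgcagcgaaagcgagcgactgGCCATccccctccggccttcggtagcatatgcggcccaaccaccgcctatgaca
B-H2, chrX:17313409-17313609, plus strand: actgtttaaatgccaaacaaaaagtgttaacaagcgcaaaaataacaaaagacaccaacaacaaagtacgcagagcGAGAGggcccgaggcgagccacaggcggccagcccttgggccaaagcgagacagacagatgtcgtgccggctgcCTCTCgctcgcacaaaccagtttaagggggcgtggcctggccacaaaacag

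The best peak of B-H1 ranked higher than that of B-H2 in all 3 replicates. The best peaks in the window of B-H2 had ranks of 4303, 1763 and 1874 in replicates 1, 2 and 3, against 1557, 1068 and 411 for B-H1. Those of B-H1 were all at its summit 205 bp upstream, while those of B-H2 were at different sites. They lay 8516 bp beyond the end of B-H2 in replicate 1, and at its summits 173 and 1072 bp upstream in replicates 2 and 3. The mean difference in log10 rank, B-H1 minus B-H2, was -0.44 ± 0.22 (SD, n = 3), which places the best peak of B-H2 2.75 times as far down the lists. An exact two-sided sign-flip permutation test gave p = 0.25, the smallest that 3 replicates allow, and 0.375 after Benjamini-Hochberg adjustment over the 3 paralogue pairs. No pair could therefore pass a threshold of 0.05. With the best peak inside the gene spans alone the direction turned, to 0.05, where the best peaks of both genes were weak, with mean ranks of 16150 and 14375. With windows of 20 kb it was -0.18 ± 0.40, and B-H2 ranked higher in replicate 1.

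**Figure D4:**
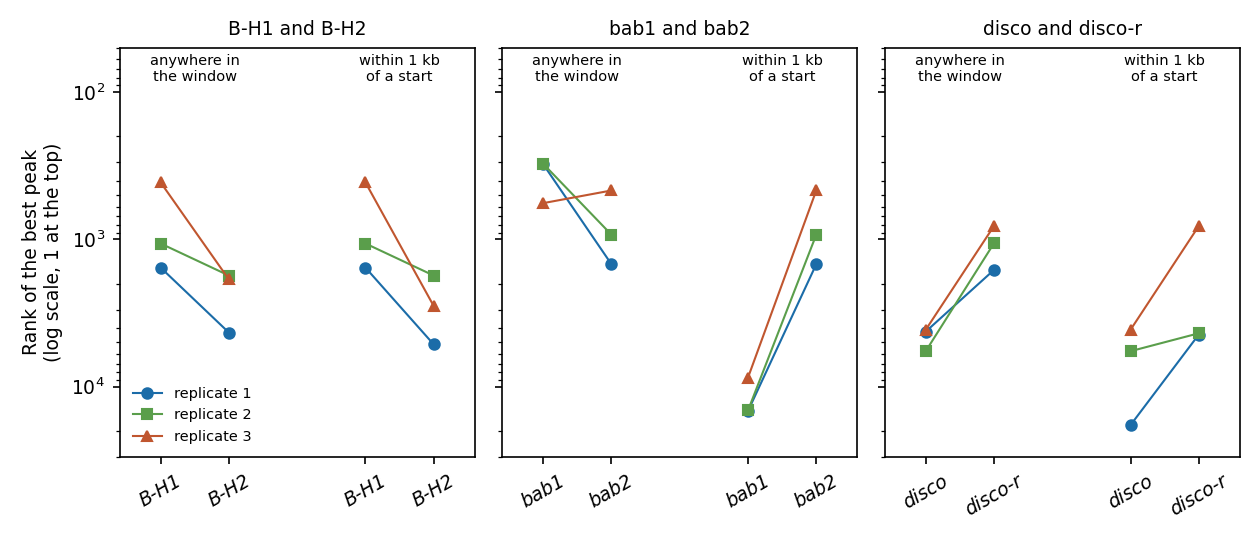
Rank of the best peak (vertical axis, log scale, rank 1 at the top) of each paralogue in replicates 1, 2 and 3, read anywhere in the window (left of each panel) and within 1 kb of an annotated start (right). Lines join the genes of a pair within a replicate. The lines of bab1 and bab2 change direction between the readings, from a mean difference in log10 rank of -0.36 to 1.15.

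The tarsal genes bab1 and bab2 were both rich in summits and differed in where these lay. They are neighbours on the minus strand of 3L, bab1 at 1036369 to 1101089 and bab2 at 1140429 to 1177276, with 39.3 kb and no protein-coding gene between them. bab2 had 2 summits within 1 kb of its start. The one 974 bp upstream had rank 838, with 1477, 931 and 466 in the replicates (mean 958 ± 506, SD, n = 3), and the one 57 bp into the gene, in a UTR, had rank 1660, with 2270, 2251 and 999. Another summit, 1173 bp upstream at rank 2327, was 199 bp from the first and shared its peak in replicate 2. The other 2 were in the second intron, 10187 bp into the gene at rank 3757, and just past its end at rank 4114.

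Within 1 kb of the bab1 start there was no optimal summit, and the best peaks of the replicates there ranked 14667, 14542 and 8703. The 6 summits inside bab1 lay in its first intron, which is 58.7 kb long in all 4 annotated transcripts. The highest, 11615 bp into the gene, had rank 1356 and ranked 1156, 1841 and 1838 in replicates 1, 2 and 3. It was highest in replicate 1, as was the al summit 57 bp upstream, while the highest-ranked promoter summits of al, B-H1 and bab2 were highest in replicate 3. It stood in a group of 3, with summits 12745 and 13584 bp into the gene at ranks 3614 and 2610, which were all found in every replicate. A nearer group held summits 3935 and 2322 bp into the gene, at ranks 1947 and 3658. The last, 16510 bp into the gene at rank 5203, ranked 2327 in replicate 1 and 24075 and 27399 in the others, so it was strong in 1 replicate only. Between the genes and outside both windows 1 more optimal summit was found, at rank 1784 and 10685 bp from the end of bab2.

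The sequences at the highest-ranked summit clear of UTRs are printed for both genes, with that of bab1 taken inside the gene, at rank 1356. Neither held GAGAG within 100 bp, although each held 1 match within 250 bp. The summit beyond the end of bab1, at rank 331, held 3 within 250 bp. The window at bab1, with a GC content of 29.4%, had no match to either word, and that at bab2, with 51.2%, held 1 GCCAT.
bab1, chr3L:1089374-1089574, minus strand: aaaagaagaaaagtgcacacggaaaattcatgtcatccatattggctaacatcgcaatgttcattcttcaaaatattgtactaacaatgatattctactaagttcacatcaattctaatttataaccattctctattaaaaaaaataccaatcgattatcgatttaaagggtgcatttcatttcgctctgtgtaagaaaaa
bab2, chr3L:1178150-1178350, minus strand: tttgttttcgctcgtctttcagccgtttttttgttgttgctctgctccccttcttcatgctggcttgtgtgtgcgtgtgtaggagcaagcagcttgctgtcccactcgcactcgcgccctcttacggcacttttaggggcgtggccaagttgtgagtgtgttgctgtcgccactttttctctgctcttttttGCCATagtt

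Which of bab1 and bab2 ranked higher depended on the distance allowed. In the whole windows bab1 was ahead, at 309, 307 and 568 against 1477, 931 and 466, and the order turned in replicate 3. The mean difference in log10 rank, bab1 minus bab2, was -0.36 ± 0.40 (SD, n = 3, exact sign-flip permutation p = 0.5, adjusted p = 0.5). The bab1 values belong to the summit at rank 331, which is 3611 bp beyond the end of bab1, inside the gene trio and nearest to the start of CG9205. Inside the gene spans the difference was -0.08 ± 0.22, smaller than its spread. Within 1 kb of a start it was 1.15 ± 0.14 in the other direction, and the best peak of bab1 was 14.3 times as far down the lists (exact sign-flip permutation p = 0.25, unadjusted).

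The largest contrast in number of summits within a pair was between disco and disco-r, which lie on the minus strand of the X chromosome with 61.6 kb and no protein-coding gene between them. disco, at 16210598 to 16216750, had 0 optimal summits in its window of 26.2 kb, and disco-r, at 16118067 to 16148977, had 5 in 50.9 kb. The nearest optimal summit to disco was 46841 bp from the gene. The highest of disco-r, in a UTR 1229 bp into the gene, had rank 1744 and ranked 1614, 1064 and 3227 in replicates 1, 2 and 3. The summit 194 bp upstream had rank 2303, with 4435, 4348 and 812, so replicate 3, lowest of the 3 at the UTR summit, was highest here. Summits 1861 and 9826 bp upstream had ranks of 3605 and 4253, and no peak of replicate 3 held the latter. The fifth, 9822 bp into the gene in an intron of 3 of the 4 annotated transcripts, had rank 5455 and was among the top 5623 peaks of replicate 1 only.

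The window of disco was not empty of weaker peaks. It held 11 peaks of the pooled list and 10 of each replicate's list. The best of the pooled list ranked 6215, just outside the 5623 of the optimal list, with the authors' -log10 q-value at 2.53 where the lowest in the optimal list was 2.87. It lay 866 bp upstream of the start. The best peaks of the replicates ranked 4237, 5754 and 4117, so that replicates 1 and 3 each had a disco peak among their own top 5623. Those of replicates 1, 2 and 3 were at 1005, 47 and 675 bp upstream. The 3 replicates thus had their best disco peaks at different positions.

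Between the paralogues, disco-r ranked higher than disco in every replicate, at 1614, 1064 and 812 against 4237, 5754 and 4117. The window of disco-r, 50.9 kb against 26.2 kb, held 39 peaks of the pooled list against 11. Its best rank was thus taken from more peaks. The mean difference in log10 rank, disco minus disco-r, was 0.62 ± 0.17 (SD, n = 3), and the best peak of disco was 4.16 times as far down the lists (exact sign-flip permutation p = 0.25, adjusted p = 0.375). The direction held within 1 kb of a start, inside the spans and with windows of 5 and 20 kb, at 0.48 to 0.97. Within 1 kb, disco ranked 5754 and 4117 in replicates 2 and 3, and disco-r 4348 and 812. The difference there depended on the limit in replicate 1, where disco ranked 18280 and disco-r 4435. The best disco peak of that replicate, at rank 4237, lay just past the limit, 1005 bp upstream. With windows of 20 kb disco-r ranked 320, 473 and 812, and its window then held the summit at rank 427, nearest to CG42353. The sequence at the best pooled peak of disco is shown beside 2 of disco-r, the highest-ranked summit clear of UTRs and the summit with the most GAGAG matches. The disco window, although outside the optimal list, held 3 GAGAG and 1 GCCAT matches. The disco-r window at 194 bp upstream held 2 and 0, and that at 1861 bp upstream 9 and 2.
disco, chrX:16217516-16217716, minus strand: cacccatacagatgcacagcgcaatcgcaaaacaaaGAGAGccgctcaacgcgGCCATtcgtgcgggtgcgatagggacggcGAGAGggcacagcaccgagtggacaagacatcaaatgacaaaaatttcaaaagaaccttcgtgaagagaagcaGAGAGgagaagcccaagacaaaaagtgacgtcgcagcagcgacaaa
disco-r at 194 bp upstream, chrX:16149071-16149271, minus strand: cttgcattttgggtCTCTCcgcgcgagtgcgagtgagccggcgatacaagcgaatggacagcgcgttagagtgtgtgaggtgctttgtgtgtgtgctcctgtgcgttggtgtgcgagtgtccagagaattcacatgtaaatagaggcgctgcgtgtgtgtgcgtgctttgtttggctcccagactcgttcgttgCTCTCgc
disco-r at 1861 bp upstream, chrX:16150738-16150938, minus strand: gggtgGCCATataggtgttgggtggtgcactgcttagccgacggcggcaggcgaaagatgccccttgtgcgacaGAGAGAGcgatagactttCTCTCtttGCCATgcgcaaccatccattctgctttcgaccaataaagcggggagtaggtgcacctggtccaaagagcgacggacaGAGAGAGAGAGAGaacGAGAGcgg

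The summits in these windows were richer in GC than the rest of the list. In windows of 250 bp each side of the summit the median GC content was 49.5%, against 41.1% over all optimal summits. A GC content of 50% or more was found at 15 of the 33, among them all 4 of Dll, and at 6.44% of all. The lowest values were outside introns, at the vg window's summit nearest to Nmda1 (34.1%) and beyond the end of B-H2 (34.7%). Summits 9826 bp upstream of disco-r (37.9%) and 9388 bp upstream of al (38.9%) were also low. The intron summits of bab2 (36.1%), al (38.7%) and disco-r (41.5%) were also below the median of the 33. So were 5 of the 6 of bab1, at 37.7% to 43.3%, where the median of all optimal summits was 41.1%. The exception at bab1 was the summit 2322 bp into the gene (51.7%).

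The GAGAG word was present in 25 of the 33 windows of this length (75.8%, 95% Wilson interval 59.0% to 87.2%) and in 59.5% of all optimal summits. GCCAT was present in 24 (72.7%, interval 55.8% to 84.9%) against 59.6%, and both words in 18 (54.5%) against 34.8%. The median number of GAGAG matches was 3 against 1, and the highest, 20, was at disco-r, 1861 bp upstream. GAAAA, a Dsp1 word, was in 90.9% against 95.1%, and GTGTGT, a word bound by Combgap, in 33.3% against 37.6%, on either strand. The intervals cover counting error only, and summits 199 to 203 bp apart share part of their windows. Over all optimal summits the share with GAGAG rose with GC content, from 52.2% under 40% GC to 78.2% at 50% and over. By GC content, GAGAG was in 4 of the 9 summits of these windows under 40% GC, against 52.2% of all such summits. At 40% to 45% it was in 1 of 4, against 58.7%, and at 45% or more in 20 of 20, against 73.1%. Split further, GAGAG was in 5 of 5 at 45% to 50%, against 71.3%, and in 15 of 15 at 50% and over, against 78.2%. The bands under 45% and the band of 45% to 50% each held too few summits for a direction to be read. GCCAT was in 5 of 9 under 40%, 4 of 4 at 40% to 45% and 15 of 20 at 45% or more, against 54.3%, 59.6% and 68.7%.

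Replicate 3 ranked most summits near starts in these windows higher than the other replicates did. Within 1 kb of any start lay 11 of the 33 summits (33.3%, against 40.8% of all optimal summits). Of these 11, 9 lay in a peak of every replicate. In replicate 3, 7 of the 9 ranked higher than the geometric mean of replicates 1 and 2. The ratio of ranks, replicate 3 over that mean, had a median log2 of -1.33, with the lowest at disco-r, 194 bp upstream (-2.44), and vg (-2.43). Over all optimal summits within 1 kb of a start the median was 0.14, and 45.2% ranked higher in replicate 3. Away from starts the median was 0.23 over 20 summits of these genes and 0.37 over all. GC content moved with this ratio: over all summits near starts the median was 0.58 under 40% GC and -1.63 at 50% GC and over. At 45% to 50% GC it was -0.58 over all and -1.88 over 4 summits in these windows. At 50% and over, the 4 summits in these windows had a median of -0.87, nearer to 0 than that of all, so the order was not the same in both bands. The part of GC content in the ranks of these genes was not tested.

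Among each replicate's top 5623 peaks, the 33 summits were found about as often as the rest of the list. In all 3 replicates 18 were found (54.5%, against 55.9% of all optimal summits), where found means inside one of a replicate's top 5623 peaks. By replicate the shares were 81.8%, 87.9% and 72.7% (mean 80.8% ± 7.63, SD, n = 3), against 84.1%, 83.2% and 73.5%. Their median optimal rank was 2636, against 2812 for the whole list. Close pairs of summits, 199 to 203 bp apart, were found at Dll, vg, al and bab2. These 4 gaps came to 12.1 per 100 summits, against 5.12 over the whole list, counting gaps of 250 bp or less. Counting each pair once leaves 29 sites.

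Just inside the window limit, disco-r had a summit 9826 bp from its span and al one at 9388 bp. Just outside it, bab2 had one at 10685 bp, the summit between the bab genes, vg one at 11610 bp at rank 3981, and disco-r one at 12850 bp at rank 427, nearest to CG42353.

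Other genes that pattern legs and wings carried summits at a share close to that of the 9. Of a list of 44 such genes (other transcription factors, and signals such as dpp, hh and wg), 40 (90.9%) had an optimal summit in the window and 38 (86.4%) within 1 kb of a start, with a median of 5 summits per window. The best ranks were at dpp, the BMP ligand gene, at 114 in the optimal list and 127 ± 18.5 in the replicates (mean ± SD, n = 3), and at fng, a modifier of Notch in the wing, at 238 and 253 ± 69.6. bowl, a zinc finger gene of leg joints, followed at 272 and 347 ± 99.6, and C15, a homeobox gene of the leg tip that acts with al, at 342 and 291 ± 186. Chi and exd, whose products are cofactors used in many tissues, had no optimal summit, as had lin and sd. Neighbouring genes of the list can hold the same summit.

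For vg, the gene with the highest rank, the closest genes by the 3 replicate ranks of the best window peak were Su(z)2, AANATL5 and CG10474. The Euclidean distance in log10 rank over the 3 replicates was 0.0994 for Su(z)2, with ranks of 484, 417 and 95, and 0.147 for the other two, which share 1 peak. The 4 genes whose best window peak is that of vg were left out.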

How the data were processed

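Peaks and their ranks came from the dm6 lists that the authors deposited: a relaxed list per replicate, one from the pooled replicates, and the optimal list, filtered by irreproducible discovery rate. According to the text deposited with the samples, each replicate list came from its own alignment and 1 further file shared by all. The sources used here name neither peak caller nor aligner. The deposited signal values, whose scaling is unstated, served only to rank peaks within a list. Deposited -log10 q-values were described only, and summits were the peak start plus the deposited offset. All 5623 optimal peaks carry the signals of the top of the pooled list. The dm3 lists were not used here.

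Genes came from Ensembl release 115 (BDGP6.54), with 19607 starts of protein-coding genes, and 9 of 9 members have the same coordinates in RefSeq. The members and gene lists were chosen with earlier results of these data known. A replicate's rank at a summit is that of its best peak containing it. Paralogues were compared by the best replicate rank in the window, with exact sign-flip permutation tests (scipy 1.17.1, Python 3.11.15) and Benjamini-Hochberg adjustment over 3 pairs. Named genes were all members, the gene of the nearest start of each summit, the 4 best-ranked and the first 2 summit-free genes of the list of 44, and the 3 nearest to the top member in replicate ranks. Genes sharing its best peak were left out there, a choice made after seeing the data, as were lin and sd, the GC bands, the merging of close summits and the ratio of replicate ranks. lncRNA:CR46336, lncRNA:CR46337, AspRS, trio and the genes nearest to summits outside the windows were also named after seeing the data. No protein table was used, so the planned protein identities were not computed. Functions were checked on simulated peaks with known answers.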

Additional observations from a re-analysis of the deposited data

How the results depend on the processing

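Of 61 values recomputed under other settings, 50 were classed as the same, 9 as moved and 2 as reversed. Those classed as the same did not always keep their size: B-H1 minus B-H2 was -0.18 with windows of 20 kb, and bab1 minus bab2 was -0.08 inside the spans. Nor did they always keep their side of the whole list. The share with GTGTGT went from 33.3% (37.6% of all) to 18.2% (13.9%) in windows of 100 bp each side. The share found in all 3 replicates went from 54.5% (55.9% of all) to 60.6% (57.0%) when read by summits within 200 bp. The count of genes with a summit was 8 of 9 with windows of 5 kb (37.0% of all genes) and of 20 kb (71.2%). It was also 8 among peaks found in all 3 replicates (38.9%) and with 1 replicate left out (41.2% to 44.3%). Among the higher-signal 2811 peaks it was 7 (38.0%), and with the gene spans alone 5 (11.6%). The 33 summits fell to 12 in the spans alone, to 18 among peaks found in all 3 replicates, to 17 in the higher-signal 2811 peaks, and to between 18 and 24 with 1 replicate left out, the lowest without replicate 2. Without a replicate, only optimal peaks found in both others were kept, so fewer peaks entered. The number found in all 3 replicates rose from 18 to 26 with each replicate's top 11246 peaks (78.8%, against 84.9% of all optimal summits). With the whole relaxed lists it rose to 29 (87.9%, against 93.3%). In windows of 100 bp each side, which hold fewer bases, the share with GAGAG was 48.5% (28.2% of all), that with GCCAT 33.3% (26.7%) and that with GAAAA 54.5% (74.4%). The rank difference of B-H1 and B-H2 turned from -0.44 to 0.0527 inside the spans, and that of bab1 and bab2 from -0.36 to 1.15 within 1 kb of a start. The cause was not tested. With 1 replicate left out, the differences of the B-H, bab and disco pairs ranged from -0.55 to -0.33, from -0.58 to -0.20 and from 0.56 to 0.72. The paralogues' windows share no base, so leaving out shared peaks changed nothing. With 3 replicates no paralogue comparison could pass the threshold, and unknown depth limits what an absent peak means. Merging close summits was chosen after seeing the data.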
